A study of Mus musculus with 21 samples.

Results

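The collagen genes of the mouse forebrain are the subject here, taken as every protein-coding gene of the count table whose symbol reads Col, a number, a and a number, with 10 or more counts in at least 3 mice. All 44 such genes of the annotation met that limit, out of 55401 genes in the table. Of these, 43 reached 10 counts in each of the 21 mice, and Col10a1, the gene nearest the limit, did so in 17 mice. They were sorted by the kind of assembly their chains form into 8 classes: 11 fibrillar genes, 6 type IV genes and 2 multiplexins of the basement membrane zone, 6 type VI genes, 3 short-chain network genes, 9 FACIT genes (collagens that sit on the surface of fibrils), 4 transmembrane genes and 3 others.

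Poly(A) RNA of the forebrain was sequenced in 6 groups. E2H, E3H and E4H (3 mice each) carry human APOE2, APOE3 or APOE4 on both alleles in place of mouse Apoe, and were 9 to 10 months old. The PS/E2H, the PS/E3H and the PS/E4H group (4 mice each) have these APOE alleles and, in addition, the heterozygous P301S tau transgene of line PS19, and were taken when the hindlimbs were paralyzed. PS19 came from a mixed B6/C3H background and the APOE lines from C57BL6, and no wild type or mouse Apoe group enters here, so tau genotype, paralysis, age at death and background cannot be told apart in any comparison of PS19 with parental mice. Each mouse gave 1 library.

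Collagens are proteins of 3 chains wound into a triple helix. Fibrillar collagens make the cable-like fibrils of connective tissue, which in the brain lies in the meninges, around larger vessels and in the choroid plexus stroma, whereas type IV collagen forms the sheet-like network of the basement membrane that wraps every brain capillary and underlies the glial surface. Type VI collagen makes beaded filaments next to basement membranes, and several minor collagens are made by neurons or other cells of the tissue itself.

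The 21 libraries held 59265459 to 75932183 counts (median 63751715), so that the collagens were measured with 7 to 5322 counts per mouse. Marker sums were those of forebrain, with 6 neuron genes at 4749 to 6046 CPM (counts scaled to library size with TMM factors) and 4 pituitary genes at 0.756 to 10.6 CPM. Xist stood at 203 to 483 CPM and 3 Y-linked genes at 0.0522 to 0.468 CPM in 17 mice, and in E4H 3, PS/E2H 2, PS/E4H 1 and PS/E4H 4 Xist stood at 2.56 to 2.84 CPM and the Y-linked genes at 66.4 to 102 CPM. The study describes most of its mice as male, which goes against these transcripts, and no sex is used as a label here. E2H 2 and PS/E2H 2 had the highest scores on the second principal component and PS/E2H 4 had the highest on the third, and results are also given without these 3 libraries. On the first component PS/E3H 1, which stays in those fits, scored -1.98 and the other PS19 mice 10.7 to 25.6. Collagen transcripts are long (median 5989 bases against 2590 over all genes tested), and the libraries differed in how log2 level changed with each doubling of transcript length, from -0.174 to 0.105 in parental mice and from -0.107 to 0.0586 in PS19 mice. Calls that change with an offset removing each library's trend with length and GC content are named.

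Per length, the collagen most abundant in the forebrain was Col6a1, an obligate chain of type VI collagen, at a median of 8.51 FPKM (a level corrected for transcript length and library size) over the 21 mice (range 3.86 to 15.3). Col4a2 (4.28 FPKM, range 2.57 to 6.43) and Col4a1 (3.06 FPKM, range 2.05 to 4.84), the chains found in nearly every basement membrane, were the second and the fifth in the order. Between them stood Col25a1, a transmembrane collagen of neurons, at 3.46 FPKM (range 2.27 to 4.10), and Col9a3, a FACIT chain, at 3.34 FPKM (range 2.65 to 4.51). The ranges of these 4 neighbours overlapped, so their order is not fixed beyond the spread between mice. The most abundant fibrillar genes were Col11a2 at 2.01 FPKM and Col1a2 at 1.76 FPKM. At the bottom were Col4a4, Col10a1, Col4a3 and Col6a6, with medians of 0.0946 to 0.0692 FPKM. Other chains of the abundant types were thus low: Col4a3 and Col4a4, which form the basement membrane of the kidney glomerulus, and Col6a5 and Col6a6, alternatives to Col6a3, had medians of 0.0692 to 0.116 FPKM.

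**Figure D1:**
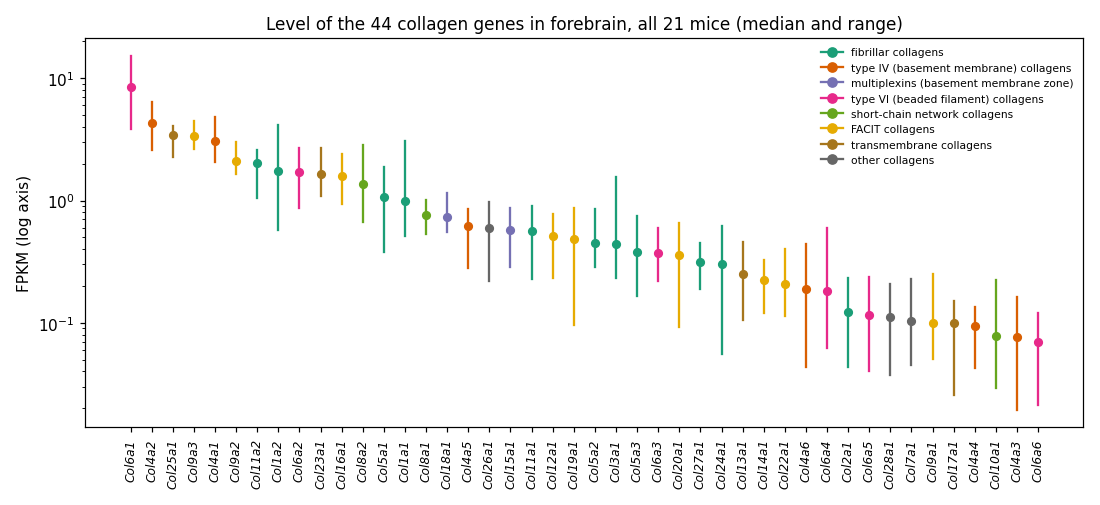
Median (point) and range (line) of the level of each of the 44 collagen genes over the 21 mice, in FPKM on a log axis, coloured by class and ordered by median. Col6a1 lies highest at 8.51 FPKM and Col6a6 lowest at 0.0692 FPKM, and the type VI and type IV classes each span the range from the top to the bottom.

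Paralyzed PS19 mice were compared with parental mice over the 3 APOE lines together, to see which collagens differ between them. The collagens moved in both directions. As the tissue was read in bulk, fewer cells of a type and less RNA per cell cannot be told apart. Type I and III collagen genes (Col1a1, Col1a2, Col3a1), Col8a2, Col9a2 and the X-linked pair Col4a5 and Col4a6 were higher in PS19 mice, and Col6a1, Col6a4, Col2a1, Col11a1, Col24a1, Col22a1, Col23a1, Col26a1 and Col4a2 were lower. In all, 16 of 44 passed (edgeR quasi-likelihood F test with APOE line as covariate, adjusted p under 0.05), 7 higher and 9 lower. Over all 22863 genes tested 21% passed, 11.4% as higher and 9.63% as lower. The median log2 difference was -0.17 over the 44 collagens and -0.01 over all genes. With a further limit of a 2-fold difference only Col4a6 and Col6a4 remained, where 2.6% of all genes did. Of the 16, 9 passed in each of the 30 other fits tried for each gene, the 2-fold limit aside (other tools, filters and scalings, libraries left out and each mouse left out): Col1a1, Col1a2, Col3a1, Col4a6, Col8a2 and Col9a2 as higher and Col2a1, Col6a1 and Col22a1 as lower. Among the 30 is the fit without the 4 mice with Y-linked transcripts, which called only these 9 collagens and 15.3% of all genes. No other gene could therefore be among the 9.

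**Figure D2:**
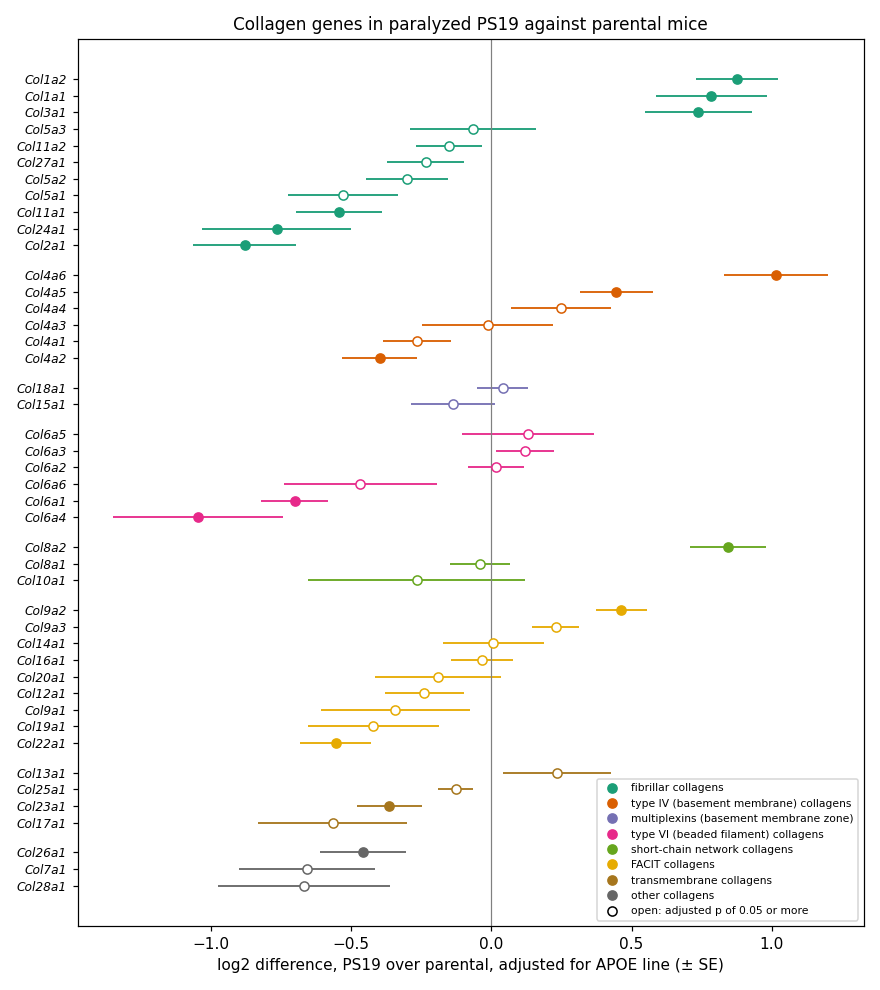
Log2 difference between PS19 and parental mice, adjusted for APOE line, for the 44 collagen genes by class (point, estimate; line, 1 SE; filled, adjusted p under 0.05). Within the fibrillar and the type IV class some genes lie to the right of 0 and others to the left, from 0.87 for Col1a2 to -0.88 for Col2a1 and from 1.01 for Col4a6 to -0.40 for Col4a2.

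Of the 11 fibrillar genes 3 rose and 3 fell. Col1a2, which encodes a chain of type I collagen, the main fibril of skin, bone and meninges, stood at 7.81, 16.4 and 17.2 CPM in E2H, 21.1, 21.5 and 16.0 in E3H and 16.9, 15.6 and 10.99 in E4H. It stood at 24.3, 28.2, 34.1 and 25.0 CPM in PS/E2H, 26.5, 36.4, 29.2 and 56.1 in PS/E3H and 27.0, 24.8, 17.1 and 24.4 in PS/E4H. In each line every PS19 mouse lay above every parental mouse, with E2H 1 lowest and PS/E3H 4 highest of all. PS19 mice were higher by a log2 difference of 0.87 ± 0.15 (SE, adjusted p = 0.00015). Col1a1, the other chain of type I, went from a mean of 5.83 to 10.1 CPM, a log2 difference of 0.78 ± 0.20 (SE, adjusted p = 0.00621). Col3a1, the type III chain that is laid down with type I in vessel walls and the meninges, went from 4.10 to 6.97 CPM (0.74 ± 0.19 SE, adjusted p = 0.00699). For both, PS/E3H 2 and PS/E3H 4 were the highest mice, at 17.9 and 21.8 CPM for Col1a1 and 11.5 and 16.6 CPM for Col3a1. Parental and PS19 medians were 5.69 and 8.41 CPM for Col1a1 and 3.91 and 5.93 CPM for Col3a1. PS19 and parental mice were free of overlap only in the E2 line for Col1a1 and only in the E4 line for Col3a1. Col3a1 shares 141 exon bases, and 1.67% of its 50-base stretches, with the annotated microRNA gene Gm47302. The summed level of 12 fibroblast markers was also higher, at 117 to 262 CPM in parental and 264 to 395 CPM in PS19 mice, and its part in the rise of these 3 genes and of Col8a2 was not tested.

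Col2a1 and Col11a1, which form the fibrils of cartilage and vitreous, moved the other way. Col2a1 stood at 1.19, 1.48 and 2.05 CPM in E2H, 1.93, 1.95 and 2.26 in E3H and 2.04, 1.27 and 1.36 in E4H. In the PS19 groups it stood at 1.28, 0.991, 1.01 and 1.26 CPM in PS/E2H, 0.449, 1.004, 0.701 and 1.40 in PS/E3H and 0.921, 0.972, 0.52 and 0.793 in PS/E4H. The E3H and PS/E3H mice did not overlap, nor did E4H and PS/E4H, whereas the E2H and PS/E2H mice did. This came to a log2 difference of -0.88 ± 0.18 (SE, adjusted p = 0.00137). Col11a1 fell from a mean of 9.44 to 6.50 CPM (-0.54 ± 0.15 SE, adjusted p = 0.0139), with E2H 2, at 3.48 CPM, below every other mouse. Without the mice with Y-linked transcripts the adjusted p of Col11a1 was 0.0706. Col24a1, a minor fibrillar collagen, fell from 3.22 to 1.92 CPM (-0.77 ± 0.27 SE, adjusted p = 0.0427), but its adjusted p was above 0.05 in 13 of the 21 fits that left out 1 mouse, at most 0.103 (without E4H 2), and in 4 of the 9 other alternatives. The remaining 5 did not pass. Col5a1, which starts type I fibrils, had a log2 difference of -0.53 ± 0.20 (SE, adjusted p = 0.0571), and Col5a2, Col27a1, Col11a2 and Col5a3 had log2 differences of -0.30, -0.23, -0.15 and -0.07.

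Of the 6 type IV genes 2 rose and 1 fell, and the multiplexins did not pass. The type IV genes lie head to head in 3 pairs: Col4a1 and Col4a2 on chromosome 8, whose annotated starts overlap by 22 bases, Col4a3 and Col4a4 on chromosome 1, 71 bases apart, and Col4a5 and Col4a6 on chromosome X, 1308 bases apart (GRCm38, GENCODE M21). Both genes of the X-linked pair rose. Col4a6 (chrX:141165403-141474076, minus strand), a chain of the basement membranes around smooth muscle, stood at 0.624, 0.424 and 1.17 CPM in E2H, 1.61, 1.201 and 1.31 in E3H and 1.58, 1.29 and 1.01 in E4H. It stood at 2.001, 1.44, 2.32 and 1.48 CPM in PS/E2H, 2.23, 1.94, 2.69 and 3.82 in PS/E3H and 3.36, 2.09, 2.08 and 1.59 in PS/E4H. In every line all PS19 mice lay above all parental mice. The log2 difference, 1.01 ± 0.19 (SE, adjusted p = 0.000373), was the highest of the 44 genes. Col4a5 (chrX:141475385-141689234, plus strand), its partner in the triple helix, rose from a mean of 3.75 to 5.07 CPM (0.45 ± 0.13 SE, adjusted p = 0.0158). Without the 4 mice with Y-linked transcripts the adjusted p was 0.00222 for Col4a6, and the log2 difference was 0.43 for Col4a5 (adjusted p = 0.0586), so that Col4a5 no longer passed.

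The pair that makes the general basement membrane chain was not higher. Col4a2 (chr8:11312805-11449287, plus strand) stood at 39.0, 22.5 and 32.5 CPM in E2H, 45.8, 38.2 and 29.6 in E3H and 31.4, 39.4 and 32.1 in E4H. In PS19 mice it stood at 31.1, 27.1, 33.8 and 45.4 CPM in PS/E2H, 22.3, 31.9, 23.2 and 24.0 in PS/E3H and 19.4, 20.1, 25.5 and 17.8 in PS/E4H. Only in the E4 line did the groups not overlap, with PS/E4H lower, and PS/E2H 4 was second only to E3H 1 among all 21 mice. The log2 difference was -0.40 ± 0.13 (SE, adjusted p = 0.0348), and the adjusted p was above 0.05 in 12 of the 21 fits that left out 1 mouse (at most 0.0852, without E3H 1) and in 6 of the 9 other alternatives, among them the length and GC offset (-0.30, adjusted p = 0.0612) and leaving out the mice with Y-linked transcripts (-0.31, adjusted p = 0.187). Col4a1 (chr8:11198423-11312826, minus strand) had a log2 difference of -0.27 ± 0.12 (SE, adjusted p = 0.135) and did not pass. Within each library, where scaling cancels, the ratio of Col4a6 to Col4a2 counts had a lowest value, median and highest value of 0.016, 0.0326 and 0.0502 in parental and of 0.0327, 0.0852 and 0.173 in PS19 mice. That of Col4a2 to Col4a1 was 1.03, 1.22 and 1.36 in parental and 0.985, 1.13 and 1.40 in PS19 mice, a much narrower span. Between the X-linked partners, Col4a6 to Col4a5, it was 0.129, 0.305 and 0.440 in parental and 0.325, 0.419 and 0.670 in PS19 mice. Col4a6 had 24 to 268 counts per mouse and Col4a2 had 1147 to 3378, so counting noise is larger in the ratios with Col4a6. Col4a3 and Col4a4 had log2 differences of -0.01 ± 0.23 and 0.25 ± 0.18 (SE) and did not pass. Neither did the multiplexins, Col18a1, the parent of endostatin, at 0.04 ± 0.09, and Col15a1 at -0.14 ± 0.15.

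Sequence just upstream of the start of 4 genes is shown, because Col4a6 and Col4a5 share the 1308 bases between their starts and rose together, and because Col8a2 and Col6a1 have the smallest p of the genes that rose and of those that fell. Each is given 5′ to 3′ on the gene's own strand (RefSeq, GRCm38.p6), without bases annotated as transcribed leader, and capitals mark GGGCGG or its reverse complement CCGCCC (the GC box) and CCAAT or ATTGG (the CCAAT box). The windows are chrX:141474077-141474326 for Col4a6, chrX:141475169-141475384 for Col4a5, chr4:126286544-126286792 for Col8a2 and chr10:76726169-76726294 for Col6a1.
Col4a6: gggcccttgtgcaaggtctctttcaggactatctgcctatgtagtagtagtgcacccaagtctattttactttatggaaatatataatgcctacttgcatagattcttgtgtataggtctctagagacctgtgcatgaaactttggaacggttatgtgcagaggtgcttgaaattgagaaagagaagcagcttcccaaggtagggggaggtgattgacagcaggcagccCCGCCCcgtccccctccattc
Col4a5: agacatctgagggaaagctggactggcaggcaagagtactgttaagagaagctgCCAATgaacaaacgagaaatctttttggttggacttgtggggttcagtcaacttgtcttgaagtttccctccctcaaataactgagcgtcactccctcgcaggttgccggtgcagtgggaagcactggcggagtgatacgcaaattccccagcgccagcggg
Col8a2: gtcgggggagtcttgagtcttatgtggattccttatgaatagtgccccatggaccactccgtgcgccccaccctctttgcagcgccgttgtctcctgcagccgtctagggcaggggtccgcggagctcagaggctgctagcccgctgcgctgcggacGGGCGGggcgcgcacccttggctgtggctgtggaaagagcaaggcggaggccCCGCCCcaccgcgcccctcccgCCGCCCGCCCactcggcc
Col6a1: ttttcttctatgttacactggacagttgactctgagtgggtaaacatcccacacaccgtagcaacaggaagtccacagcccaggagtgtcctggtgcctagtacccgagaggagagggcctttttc
Overlapping GC boxes run together in the last capitals of Col8a2, which has 4 of them in 249 bases, against 1 in Col4a6 and none in the 126 bases of Col6a1. In windows of 300 bases (250 before the start to 50 after), read on both strands, the GC box was found in 23 of the 38 windows of the 35 collagen genes with an entry (60.5%), where 35.7% of all 32851 promoters hold it. The CCAAT box was found in 13 (34.2% against 37.4%) and TATAAA in 5 (13.2% against 13.6%). These are matches of letters only.

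Among the type VI genes Col6a1 fell while the genes of its partner chains did not pass. Col6a1 (chr10:76708792-76726168) stood at 55.7, 29.8 and 59.5 CPM in E2H, 72.2, 62.2 and 48.1 in E3H and 42.1, 59.9 and 45.7 in E4H. With the tau transgene it was at 36.6, 34.4, 34.2 and 41.5 CPM in PS/E2H, 31.7, 39.6, 43.0 and 40.4 in PS/E3H and 23.8, 25.3, 18.8 and 27.7 in PS/E4H. All PS/E3H mice lay below all E3H mice and all PS/E4H below all E4H, whereas E2H 2, at 29.8 CPM, lay below every PS/E2H mouse. Over the lines, its log2 difference was -0.70 ± 0.12 (SE, adjusted p = 0.000167). Col6a2 (chr10:76595762-76623630), its neighbour on chromosome 10 and a chain of the same helix, had a log2 difference of 0.02 ± 0.10 (SE, adjusted p = 0.938), and Col6a3, the third chain, one of 0.12 ± 0.10 (SE, adjusted p = 0.479). The ratio of Col6a1 to Col6a2 counts had a lowest value, median and highest value of 2.31, 3.54 and 5.31 in parental and 1.58, 2.23 and 2.57 in PS19 mice. That of Col6a1 to Col6a3 was 8.51, 10.3 and 15.5 in parental and 3.53, 6.24 and 14.1 in PS19 mice, the highest of them in PS/E2H. Both ratios overlapped between parental and PS19 mice.

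Col6a4, an alternative to the Col6a3 chain, was the most lowered of the 44. It stood at 2.64, 1.52 and 1.23 CPM in E2H, 2.78, 2.45 and 2.75 in E3H and 4.05, 5.47 and 1.47 in E4H. In PS19 mice it stood at 1.77, 1.25, 1.67 and 3.05 CPM in PS/E2H, 0.604, 1.93, 1.63 and 1.13 in PS/E3H and 0.905, 0.972, 0.796 and 0.622 in PS/E4H. PS19 mice were lower without overlap in the E3 and E4 lines and overlapped in E2, and E4H was spread widely, from E4H 3 to E4H 2, the highest mouse of all. The log2 difference was -1.05 ± 0.30 (SE, adjusted p = 0.0157) at 40 to 412 counts per mouse, and -0.88 (adjusted p = 0.0757) without the mice with Y-linked transcripts. Col6a4 shares exon bases with 2 genes annotated on the opposite strand, and whether counting used strand is not given in the sources used here; the same holds for Col9a3, which shares 234 bases with Tcfl5, and Col5a1. Col6a5 and Col6a6 had log2 differences of 0.13 ± 0.24 and -0.47 ± 0.27 (SE). They share 3.48% and 3.71% of their 50-base stretches, with each other, so some reads could fall to either.

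Of the 3 short-chain genes, Col8a2, a chain of the hexagonal network found in the cornea and in vessel walls, rose. It stood at 4.83, 3.55 and 3.30 CPM in E2H, 6.21, 6.10 and 6.19 in E3H and 7.07, 5.03 and 4.13 in E4H. The PS19 values were 9.01, 6.82, 9.34 and 6.88 CPM in PS/E2H, 7.23, 11.1, 9.48 and 12.8 in PS/E3H and 7.87, 14.04, 6.73 and 8.43 in PS/E4H. The groups did not overlap in the E2 and E3 lines, and in the E4 line PS/E4H 3 lay below E4H 1. The log2 difference of 0.84 ± 0.14 (SE, adjusted p = 0.000105) had the smallest p of the 44. Its partner Col8a1 had a log2 difference of -0.04 ± 0.11 (SE), and Col10a1, the collagen of growing cartilage, one of -0.27 ± 0.39 at 7 to 57 counts per mouse.

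Of the 9 FACIT genes 1 rose and 1 fell. Col9a2, a chain of type IX collagen, stood at 5.72, 6.38 and 6.98 CPM in E2H, 6.54, 7.36 and 6.03 in E3H and 5.94, 5.51 and 5.59 in E4H. In PS19 mice it stood at 7.24, 9.13, 9.39 and 10.1 CPM in PS/E2H, 7.29, 8.04, 8.29 and 9.11 in PS/E3H and 8.47, 10.4, 9.44 and 6.08 in PS/E4H. All PS/E2H and PS/E4H mice lay above the parental mice of their line, whereas PS/E3H 1 lay below E3H 2. Its log2 difference was 0.46 ± 0.09 (SE, adjusted p = 0.000729). The companion chain Col9a3 had one of 0.23 ± 0.08 (SE, adjusted p = 0.0555) and passed with the length and GC offset (0.26, adjusted p = 0.0282).

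Col22a1, a collagen of tissue junctions, stood at 2.11, 2.40 and 2.16 CPM in E2H, 2.79, 1.97 and 1.75 in E3H and 2.92, 3.99 and 3.73 in E4H. The PS19 values were 1.17, 1.999, 1.64 and 1.75 CPM in PS/E2H, 1.33, 1.12, 1.42 and 1.57 in PS/E3H and 3.12, 2.52, 2.36 and 1.68 in PS/E4H. PS19 mice were lower in each line, with overlap only in E4, and among both parental and PS19 mice the E4 line had the highest mean. Its log2 difference was -0.56 ± 0.13 (SE, adjusted p = 0.00286). The other FACIT genes, Col9a1, Col12a1, Col14a1, Col16a1, Col19a1 and Col20a1, had log2 differences from -0.42 to 0.01 and did not pass.

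Col23a1 was the only transmembrane gene that passed. It stood at 6.95, 8.41 and 12.7 CPM in E2H, 16.6, 14.3 and 15.1 in E3H and 14, 10.4 and 10.2 in E4H. In PS19 mice it stood at 11.3, 8.80, 8.72 and 10.8 CPM in PS/E2H, 10.4, 9.70, 9.15 and 11.5 in PS/E3H and 8.11, 8.52, 7.88 and 6.56 in PS/E4H. PS19 mice were lower without overlap in the E3 and E4 lines, and E2H and PS/E2H overlapped. The log2 difference was -0.36 ± 0.11 (SE, adjusted p = 0.0259), and the adjusted p rose above 0.05 without E2H 3 (0.0617), E3H 1 (0.0591) or E4H 1 (0.0691), or without the mice with Y-linked transcripts (0.104). Col25a1, the abundant neuronal one, had a log2 difference of -0.13 ± 0.06 (SE, adjusted p = 0.158). Col13a1 and Col17a1 had log2 differences of 0.23 ± 0.19 and -0.57 ± 0.27. Among the 3 unclassed genes Col26a1 fell from 6.15 to 4.52 CPM (-0.46 ± 0.15 SE, adjusted p = 0.0371), with an adjusted p above 0.05 in 11 of the 21 fits that left out 1 mouse (at most 0.0903, without E4H 1) and in 4 of the 9 others. Col7a1, the anchoring fibril of skin, and Col28a1 had log2 differences of -0.66 ± 0.24 (SE, adjusted p = 0.0567) and -0.67 ± 0.31 (SE, adjusted p = 0.131).

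**Figure D3:**
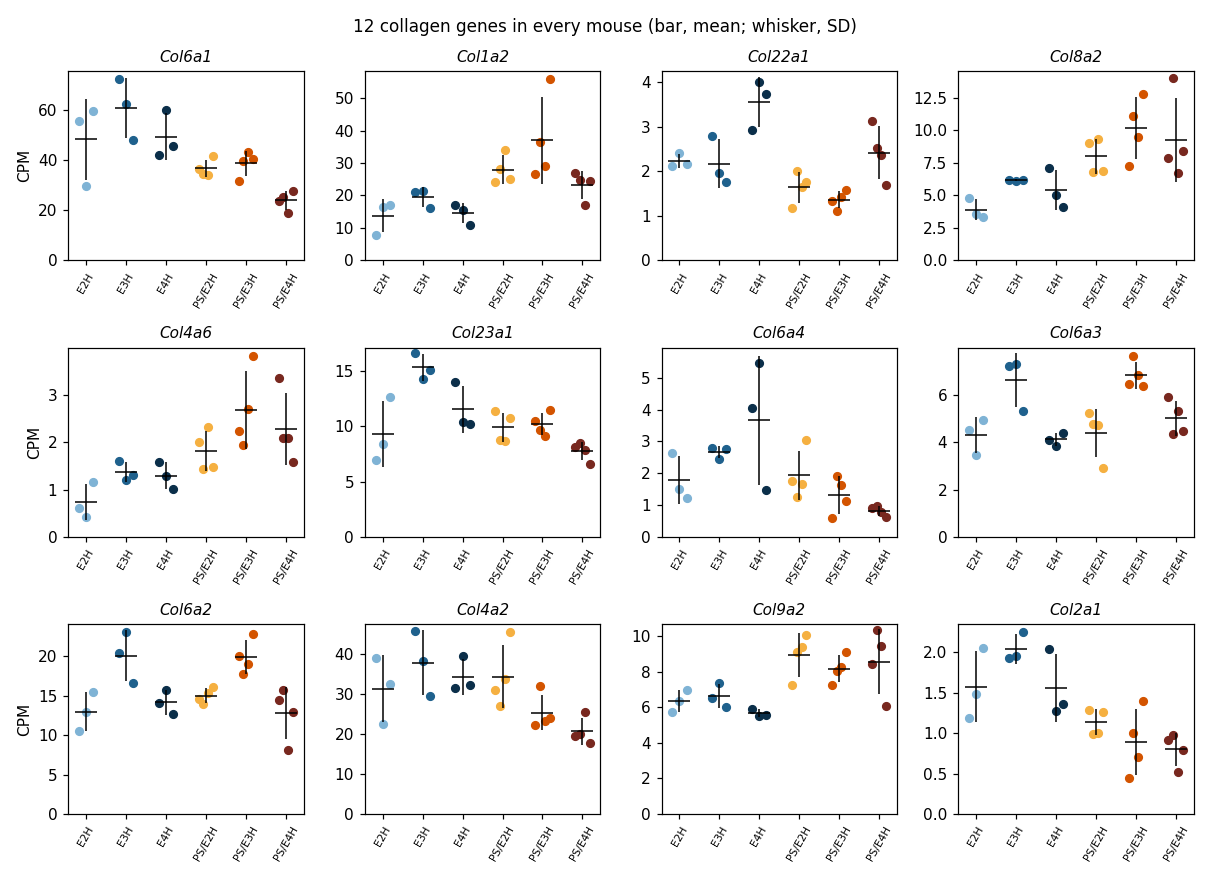
Level of 12 collagen genes in every mouse (CPM, linear axes from 0; point, mouse; bar, group mean; whisker, SD), those with the smallest p among the 6 groups. Col1a2, Col8a2, Col4a6 and Col9a2 lie higher in the PS19 groups (orange to brown), Col6a1, Col2a1 and Col22a1 lie lower, and Col6a2 and Col6a3 are highest in the E3 lines with and without tau.

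The same comparison was then made within each APOE line, where 6 collagens passed in the E3 line and 10 in the E4 line. In PS/E3H against E3H, 2 rose and 4 fell, where 5.37% of 21251 genes passed, 3.35% as higher and 2.02% as lower. Col23a1 had the smallest p, with a log2 difference of -0.60 ± 0.11 (SE, adjusted p = 0.0169). Col6a1 (-0.66 ± 0.14), Col5a1 (-0.67 ± 0.14) and Col4a1 (-0.49 ± 0.10) also fell, and Col1a2 (0.91 ± 0.23) and Col8a2 (0.71 ± 0.18) rose. None of the 6 held in every alternative. The count went to 0 without E3H 1 (0.522% of all genes) or without E3H 2 (1.18%). It was 1 without PS/E3H 4 (1.92%), 2 without E3H 3 (0.957%) and 3 without PS/E3H 3 (3.52%). Without PS/E3H 2 it was 5 (3.42%), and without PS/E3H 1 it was 7 (12.4%). With the length and GC offset 4 passed (5.84% of all genes), as Col4a1 (adjusted p = 0.0531) and Col5a1 (adjusted p = 0.0502) lost their calls.

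In PS/E4H against E4H, 3 rose and 7 fell, where 15.6% of 20844 genes passed, 8.62% as higher and 6.98% as lower. Col6a1 had the smallest p, at -1.05 ± 0.15 (SE, adjusted p = 0.00174), and was the only gene of the 10 that passed in every alternative. Col6a4 had the largest difference, -2.16 ± 0.39 (SE, adjusted p = 0.00605). Col4a2 fell by 0.73 ± 0.13 and Col4a1 by 0.49 ± 0.12 on the log2 scale, so that in this line both chains of the general basement membrane collagen were lower. Col11a1, Col5a1 and Col23a1 had log2 differences of -0.79, -0.95 and -0.58. Col1a2 (0.68 ± 0.18), Col3a1 (0.60 ± 0.17) and Col9a2 (0.59 ± 0.18) rose. The count went to 5 without E4H 1, E4H 2 or PS/E4H 4 (7.12%, 5.54% and 12.7% of all genes). It was 6 without PS/E4H 2 (10.7%), 7 without E4H 3 (11.2%) and 14 without PS/E4H 3 (16.5%). Without the mice with Y-linked transcripts, which leaves 2 mice in each group, the count was 7 (9.59%). With the length and GC offset it was 10 (14.7%), with Col5a1 lost (adjusted p = 0.0814) and Col1a1 gained (0.90, adjusted p = 0.0358).

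In PS/E2H against E2H none passed, where 0.752% of 20617 genes did. At an unadjusted p under 0.05 there were 6 collagens (10.7% of all genes), and with DESeq2 4 passed, all higher (3.35% of all genes). Col8a2 had the smallest p, with a log2 difference of 1.03 ± 0.20 (SE, adjusted p = 0.0538). Col4a6 and Col1a2 had log2 differences of 1.28 ± 0.38 (SE, adjusted p = 0.213) and 1.01 ± 0.25 (SE, adjusted p = 0.121). Without E2H 2 there were 10 at an unadjusted p under 0.05 (the share of all genes was not counted). The median log2 difference of the 44 then went from 0.08 to -0.05. Without E2H 2, PS/E2H 2 and PS/E2H 4, only E2H 1 and E2H 3 stood against PS/E2H 1 and PS/E2H 3. In that fit Col8a2 (1.18, adjusted p = 0.0467) and Col6a1 (-0.69, adjusted p = 0.02) passed, where 1.5% of all genes did.

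Whether the difference between PS19 and parental mice itself differed between the lines was tested as an interaction, and no collagen passed (0% of all genes did). With DESeq2 there were also none, where 0.258% of all genes passed, and at an unadjusted p under 0.05 there were 4 collagens, where 7.59% of all genes were. They were Col6a4, Col4a2, Col23a1 and Col4a1, named after their values were seen. This number was 1 without E2H 2 or with the length and GC offset, 7 without E2H 1 and 8 without the mice with Y-linked transcripts. The share of all genes at that limit was not counted in these refits. For Col6a4 the unadjusted p was 0.00329 and the adjusted p was 0.481, with log2 differences of 0.10 ± 0.37 in E2, -1.02 ± 0.34 in E3 and -2.16 ± 0.39 in E4. For Col4a2 they were 0.12 ± 0.21, -0.59 ± 0.16 and -0.73 ± 0.13. The genes that rose had log2 differences above 0 in all 3 lines, as the plot of differences by line shows, while those of Col4a1, Col4a2, Col23a1, Col5a1 and Col6a4 were below 0 in E3 and E4. In E2 these 5 had values from 0.04 to 0.18 that went below 0 in at least 1 alternative each (lowest from -0.03 for Col4a1 to -0.27 for Col5a1), so that their sign in E2 is not fixed.

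**Figure D4:**
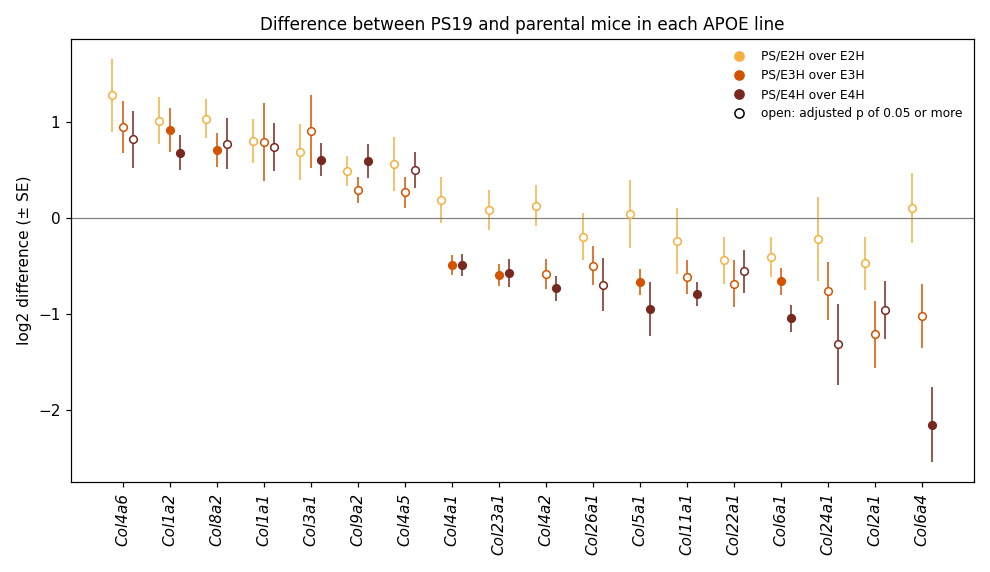
Log2 difference between PS19 and parental mice in each APOE line for the 18 collagen genes that passed in the pooled test or in a line (point, estimate; line, 1 SE; filled, adjusted p under 0.05). For Col4a6, Col1a2 and Col8a2 the 3 lines lie together above 0, and for Col6a4 they spread from 0.10 in E2 to -2.16 in E4.

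Next, all 6 groups were tested together, which takes in the difference between PS19 and parental mice, and then the lines were compared with each other. Across the 6 groups 15 collagens differed (F test of any difference, adjusted p under 0.05), where 16.4% of all genes did. With the length and GC offset 12 did so (15.6% of all genes). The offset took the adjusted p of Col4a2 to 0.0653, of Col2a1 to 0.0685 and of Col18a1 to 0.146. Of the 15, 12 had also passed between PS19 and parental mice, and Col6a2, Col6a3 and Col18a1 had not. Their highest means were in the E3 lines, with and without tau. The E3 lines were set against the others only after these values were seen, and that split was not tested. Col6a2, a chain of type VI collagen, stood at 10.5, 12.9 and 15.4 CPM in E2H, 20.4, 23.1 and 16.7 in E3H and 14.1, 15.7 and 12.6 in E4H. With the tau transgene it was at 14.6, 13.9, 15.3 and 16.1 CPM in PS/E2H, 19.98, 17.8, 19.0 and 22.9 in PS/E3H and 14.5, 15.7, 8.09 and 12.9 in PS/E4H. The lowest of the 7 mice of the E3 lines, at 16.7 CPM, was above all 14 mice of the other lines. The adjusted p across the groups was 0.0156, and 0.0305 with the length and GC offset.

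Col6a3, the third chain of the same helix, stood at 4.54, 3.44 and 4.93 CPM in E2H, 7.23, 7.32 and 5.32 in E3H and 4.11, 3.86 and 4.38 in E4H. The PS19 values were 5.23, 4.75, 4.71 and 2.93 CPM in PS/E2H, 6.44, 7.63, 6.82 and 6.37 in PS/E3H and 5.92, 4.35, 5.33 and 4.48 in PS/E4H. E3H 3, at 5.32 CPM, fell among the mice of the other lines, and the other 6 mice of the E3 lines lay above all of them. The adjusted p was 0.0129, and 0.0208 with the offset. Col18a1 had group means of 5.43 ± 0.964, 7.07 ± 0.782 and 4.95 ± 0.236 CPM (SD, n = 3 each) in E2H, E3H and E4H and of 6.29 ± 0.53, 6.87 ± 1.36 and 4.80 ± 0.557 CPM (SD, n = 4 each) in the PS19 groups. Its adjusted p was 0.0353. Without the mice with Y-linked transcripts the adjusted p was 0.0595 for Col6a2, 0.0403 for Col6a3 and 0.154 for Col18a1.

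Between parental lines no collagen passed by edgeR. In E2H against E3H (0.178% of all genes passed) 11 collagens had an unadjusted p under 0.05, where 14.1% of all genes had, and DESeq2 called 3, all lower, where it called 2.84% of all genes. The 11 became 6 without E3H 1 or without E3H 2. Here and below, the share of all genes at an unadjusted p under 0.05 was not counted in fits with a mouse left out. The log2 difference was below 0 for 43 of the 44 collagens, with a median of -0.43, where 51.4% of all genes lay below 0, and E3H stands in this and the next comparison. Without E2H 2 the median was -0.28, and with the length and GC offset it was -0.27 with 42 below 0. Col6a2 had the smallest p (-0.64 ± 0.17 SE, adjusted p = 0.229). In E4H against E3H (0.162%) there were 9 at an unadjusted p under 0.05 (6.67%) and 2 with DESeq2 (0.763%), and the median was -0.19 with 37 below 0. The 9 became 4 without E3H 1 and 15 without E3H 3, and the median became -0.11 without E4H 3, -0.29 without E4H 2 and, with 33 below 0, -0.14 with the offset. Col6a3 had the smallest p (-0.68 ± 0.16 SE, adjusted p = 0.294). In E4H against E2H (0.216%) there were 3 at an unadjusted p under 0.05 (12.4%) and 1 with DESeq2 (1.55%), and the 3 became 8 without E2H 1 and 6 without E2H 3 or E4H 3. Here Col22a1 had the smallest p and was higher in E4H, at 0.68 ± 0.19 (SE, adjusted p = 0.346). The change of level with each doubling of transcript length was 0.0649 to 0.105 in E3H, 0.0214 to 0.0902 in E4H and -0.174 to 0.00274 in E2H.

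In paralyzed mice, too, no collagen passed between lines by edgeR. The study reports later paralysis in PS/E3H than in PS/E2H or PS/E4H mice. No age is given for the sequenced PS19 mice, so APOE line and age at death cannot be told apart in these comparisons. PS/E2H against PS/E3H (0.113% of all genes passed) had 6 at an unadjusted p under 0.05 (11.7%) and 1 with DESeq2 (0.748%). Col6a2 again had the smallest p, with a log2 difference of -0.42 ± 0.10 (SE, adjusted p = 0.358). PS/E4H against PS/E3H (0.0197%) had 10 at an unadjusted p under 0.05 (6.51%) and 1 with DESeq2 (0.172%), and PS/E4H against PS/E2H (0.119%) had 8 (12.3%) and 3 (1.25%). The 6 became 3 without PS/E2H 4, the 10 became 16 without PS/E3H 1 and the 8 became 5 without PS/E2H 1. For these refits the share of all genes at an unadjusted p under 0.05 was not counted. In both comparisons with PS/E4H Col6a1 had the smallest p, with log2 differences of -0.70 ± 0.13 (SE, adjusted p = 0.413) and -0.62 ± 0.12 (SE, adjusted p = 0.142). The 4 PS/E4H mice, at 23.8, 25.3, 18.8 and 27.7 CPM, lay below all 17 other mice.

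Genes that act on collagen were taken as lists and counted in the pooled comparison of PS19 with parental mice. Of 28 genes that modify, fold, cut or crosslink collagen chains, 8 rose and 2 fell, with a median log2 difference of 0.08. Lox, the enzyme that crosslinks fibrils, rose most among the 4 named, by a log2 difference of 2.16 ± 0.25 (SE, adjusted p = 1.97e-06) from 0.692 to 3.11 CPM. Plod1, a lysyl hydroxylase, P4hb, a subunit of prolyl hydroxylase, and Pcolce2, which aids removal of the propeptide, had log2 differences of 0.55 ± 0.06 (SE, adjusted p = 4.36e-07), 0.32 ± 0.04 (SE, adjusted p = 4.12e-06) and 0.62 ± 0.08 (SE, adjusted p = 6.16e-06). Of 10 collagen receptors 5 rose and none fell (median 0.31), and Lair1, an inhibitory receptor of leukocytes, had the smallest p, at 1.03 ± 0.10 (SE, adjusted p = 9.76e-08). Itgb1, the integrin beta chain, Mrc2, an endocytic receptor for collagen, and Ddr1, a receptor kinase, had log2 differences of 0.30 ± 0.05 (SE, adjusted p = 7.3e-05), 0.76 ± 0.14 (SE, adjusted p = 0.00031) and 0.41 ± 0.08 (SE, adjusted p = 0.000578). Of the 10 genes of collagen breakdown 5 rose and none fell (median 0.40), and the 4 with the smallest p were the protease inhibitors Timp3 (0.47 ± 0.06 SE, adjusted p = 1.66e-05), Timp1 (2.35 ± 0.35 SE, adjusted p = 3.74e-05), Timp4 (0.54 ± 0.11 SE, adjusted p = 0.000952) and Timp2 (0.15 ± 0.04 SE, adjusted p = 0.0142).

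Other proteins of the basement membrane also moved in both directions: of 15, 4 rose and 2 fell (median 0.03). The laminin chains Lamb2 (0.62 ± 0.09 SE, adjusted p = 1.54e-05) and Lama2 (0.50 ± 0.08 SE, adjusted p = 8.24e-05) rose, and Agrn, a heparan sulfate proteoglycan (-0.34 ± 0.08 SE, adjusted p = 0.00246), and Lama3 (-0.39 ± 0.11 SE, adjusted p = 0.0136) fell. Of 15 other proteins of the interstitial matrix 9 rose and none fell (median 0.43), among them Sparc, a collagen-binding protein (0.73 ± 0.11 SE, adjusted p = 4e-05), Fbln5 (0.85 ± 0.13 SE, adjusted p = 6.59e-05), Thbs2 (0.72 ± 0.14 SE, adjusted p = 0.000731) and Postn (0.58 ± 0.12 SE, adjusted p = 0.00166). All 5 lists are described by their counts beside the 21% of all genes.

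Markers of the cells that make collagen moved as well in the pooled comparison, where 11.4% of all genes passed as higher and 9.63% as lower. Of 12 markers of meningeal and perivascular fibroblasts 7 rose and 1, Cemip, fell, at a log2 difference of -0.31 ± 0.10 (SE, adjusted p = 0.0246). Fmod had the smallest p, with a log2 difference of 1.11 ± 0.17 (SE, adjusted p = 5.25e-05). Igf2, Mgp and Aldh1a2 had log2 differences of 0.70 ± 0.12 (SE, adjusted p = 0.000123), 0.57 ± 0.11 (SE, adjusted p = 0.000429) and 0.60 ± 0.12 (SE, adjusted p = 0.000605), while Dcn and Lum, the defining fibroblast proteoglycans, had 0.11 ± 0.10 (SE, adjusted p = 0.484) and 0.18 ± 0.14 (SE, adjusted p = 0.415). Their summed level, given above beside type I and III collagen, did not overlap between parental and PS19 mice and was lowest in E2H 1, and none of the 12 was at 0 in any mouse. Of 9 endothelial markers 4 rose (summed 188 to 240.3 CPM in parental and 200.3 to 284 CPM in PS19 mice), and of 10 markers of pericytes and smooth muscle 2 rose (215 to 309 CPM and 241 to 319.9 CPM), so both sums overlapped. Of 9 choroid plexus markers 4 rose (456 to 783 CPM and 431 to 1254 CPM). All 6 astrocyte markers and 5 of 6 microglial markers rose, as did 3 of 5 oligodendrocyte and 2 of 4 precursor markers. The astrocyte sum was 2503 to 3063 CPM in parental and 3984 to 5948 CPM in PS19 mice. For the microglial sum these were 360 to 474 CPM and 532 to 967 CPM, so lack of overlap was not particular to the fibroblast sum. Of 6 neuron markers 2 rose and 3 fell, and of 4 pituitary markers 1 fell. In PS/E3H against E3H, where 5.37% of all genes passed, 4 of the fibroblast markers rose (median log2 difference 0.44). In PS/E4H against E4H, where 15.6% of all genes passed, 6 rose and 1 fell (median 0.62). In PS/E2H against E2H, where 0.752% of all genes passed, none of them did (median 0.55).

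**Figure D5:**
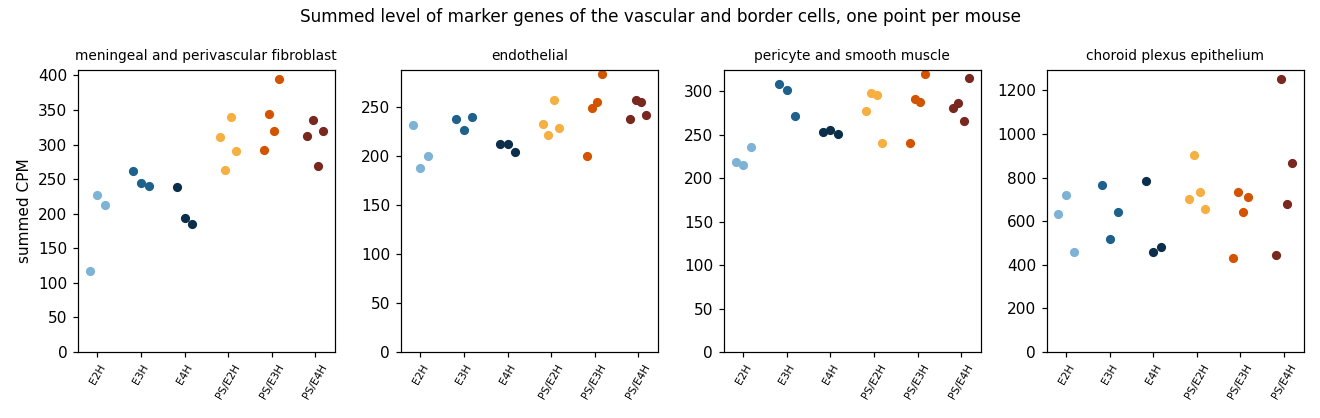
Summed CPM of the markers of 4 cell types of vessels and brain borders in every mouse, by group, on linear axes from 0. The fibroblast sum, in which Igf2 is the most abundant gene, is 117 to 262 CPM in the parental and 264 to 395 CPM in the PS19 groups, without overlap. The endothelial, mural and choroid plexus sums overlap. The astrocyte and microglial sums, which are not drawn, do not overlap either.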

How the data were processed

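Forebrain RNA of 21 mice was read from stranded poly(A) libraries. The authors trimmed reads with cutadapt, aligned them with HISAT2 and assembled and quantified them with StringTie on GRCm38.p5 (per the labels, with no versions). They deposited raw counts for 55401 genes and FPKM for 37538 genes. The counts were tested and FPKM served for levels between genes and as an alternative. Mice were grouped by genotype as labelled.

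Genes kept by filterByExpr (minimum count 10) were scaled by TMM and tested with edgeR 4.0.16 quasi-likelihood F tests, which are two-sided, in R 4.3.3. A gene passed at a Benjamini-Hochberg adjusted p under 0.05 over all genes tested, and all 44 collagens were among them in each of the 12 comparisons. The pooled test took APOE line as covariate. The 9 comparisons of 2 groups used only the mice of those groups. SE is the log2 difference over the root of F. Gene names and positions came from GENCODE M21, which named 55141 of the genes. Alternatives were DESeq2 1.42.0, RLE scaling, no filter, a 2-fold limit, a replicate block, limma 3.58.1 on log2(FPKM + 0.1) and log2(FPKM + 1), contrasts in a fit of the 6 groups and each mouse left out. Added after the data were seen were an offset for transcript length and GC content, and fits without E2H 2, PS/E2H 2 and PS/E2H 4 or without the mice with Y-linked transcripts. Scripts were tested on simulated counts.

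Values of every mouse are given for the 12 collagens with the smallest p across the 6 groups, which include the one with the smallest p in each comparison of 2 groups. Of each other list the 4 genes with the smallest p in the pooled test are named, and Dcn and Lum were named after their values were seen. The members and lists were chosen with earlier results of these data known, so no count of them is independent evidence. Nothing says that mice of a group came from separate litters or preparation days, so p-values measure the spread between these libraries. No 2 libraries of a group were alike within counting noise.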

Additional observations from a re-analysis of the deposited data

Results flagged for a closer look

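For the 12 collagens given mouse by mouse, no PS19 mouse lay apart from the other 3 of its group by the measure used (Dixon's ratio, the gap to the nearest mouse over the range of the group, above its 95% critical value). Among the marker sums, that of the neuron markers in PS/E3H 1, at 5929 CPM (ratio 0.83), lay apart from the 4994 to 5153 CPM of the other PS/E3H mice. That of the pituitary markers in PS/E4H 2, at 4.84 CPM (ratio 0.843), lay apart from the 1.35 to 1.90 CPM of the other PS/E4H mice. These were 2 of 66 groups of values looked at, and chance alone flags about 1 in 20. The parental groups of 3 were not looked at in this way.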

How the results depend on the processing

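Counts of collagens that passed are given here beside those of the report, with the share of all genes that passed in the same fits. In the pooled comparison of PS19 with parental mice (16, 21%) a 2-fold limit left 2 (2.6%). Leaving out the mice with Y-linked transcripts left 9 (15.3%). The other 8 alternatives gave 12 to 21 (11.1% to 25.4%). Leaving out 1 mouse gave 12 to 21 (15.9% to 24%), with 21 without E2H 2 (24%). Across the 6 groups (15, 16.4%) DESeq2 gave 24 (27.1%) and leaving out the mice with Y-linked transcripts gave 10 (9.15%). Leaving out 1 mouse gave 12 to 18 (10.9% to 21.6%). The interaction gave 0 in each alternative (0% to 0.258%). PS/E2H over E2H (0, 0.752%) gave 4 with DESeq2 (3.35%), 2 with the replicate block (1.19%) and 3 in a fit of the 6 groups (2.44%). It gave 2 without E2H 2, PS/E2H 2 and PS/E2H 4 (1.5%). Leaving out 1 mouse gave 0 to 1 (0.146% to 0.695%), with 1 without E2H 2 (0.573%). PS/E3H over E3H (6, 5.37%) gave 11 with DESeq2 (11.6%), 1 without a filter (1.64%), 0 with a 2-fold limit (1.32%) and 2 with the replicate block (2.49%). It gave 0 and 1 with limma on log2(FPKM + 0.1) and log2(FPKM + 1) (0.212% and 2.2%) and 3 in a fit of the 6 groups (4.78%). Leaving out 1 mouse gave 0 to 7 (0.522% to 12.4%). PS/E4H over E4H (10, 15.6%) gave 20 with DESeq2 (21.9%), 6 without a filter (6.56%), 2 with a 2-fold limit (2.98%) and 6 with the replicate block (5.99%). It gave 3 and 5 with limma on log2(FPKM + 0.1) and log2(FPKM + 1) (7.77% and 12.9%) and 6 in a fit of the 6 groups (12.5%). Leaving out 1 mouse gave 5 to 14 (5.54% to 16.5%). Between lines, where edgeR gave 0, DESeq2 gave 3 for E2H over E3H (2.84%), 2 for E4H over E3H (0.763%) and 1 for E4H over E2H (1.55%). In PS19 mice it gave 1 for PS/E2H over PS/E3H (0.748%), 1 for PS/E4H over PS/E3H (0.172%) and 3 for PS/E4H over PS/E2H (1.25%). Of these 6 edgeR counts, leaving out 1 mouse changed only that of PS/E2H over PS/E3H, to 0 to 1 (1 without PS/E3H 1, 0.111%). The cause of these changes was not tested.

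No log2 difference of a gene that passed changed sign in any alternative. In the pooled comparison 59 of 480 refitted values lost their call, in PS/E3H over E3H 52 of 90 and in PS/E4H over E4H 61 of 160. Replicate numbers are shared between groups but mice of the same number did not deviate together (48 pairs, correlations -0.218 to 0.381, median -0.0367, against a median of 0.00557 for other pairs). The replicate block, which gave 12 (16.7% of all genes) in the pooled comparison and 13 (11.9%) across the 6 groups, is therefore an alternative only. Genes near 10 counts, such as Col10a1, were limited by depth.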
